A study of Mus musculus with 2 samples.

Results

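Cycling CD8 T cells were chosen from 2 droplet single-cell RNA libraries of tumour T cells by the unique molecular identifiers (UMIs) of named transcripts in each cell. A barcode was kept with at least 1000 UMIs, at least 500 genes and at most 10% mitochondrial UMIs. It entered the CD8 gate with at least 2 UMIs over Cd3d, Cd3e and Cd3g, at least 1 over Cd8a and Cd8b1, and none of Cd4 or Foxp3. A gated cell was called cycling when its UMIs of Mki67, Top2a and Birc5, the cycling sum, came to 3 or more, and non-cycling when the sum was 0. This gave 1006 cycling cells of 16770 kept cells in all, 746 of 9155 with mSTAR1302 and 260 of 7615 with vehicle. The non-cycling cells of the same gate, 3951 and 1173, served as the comparison within each library. A further 1400 and 625 gated cells with a sum of 1 or 2 belonged to neither. Because measured values of Mki67, Top2a and Birc5 chose the cells, these 3 genes are a description and no result.

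Both libraries came from EMT6 tumours, a transplanted mouse mammary carcinoma line grown under the skin of BALB/c mice aged 4 to 6 weeks. Mice were randomised when tumours measured 80 to 150 mm3, and the treated group received mSTAR1302 into the peritoneum once a week for 2 cycles, while the control group received vehicle. As background, mSTAR1302 joins interleukin-2 to an antibody that binds some T cell receptor Vβ chains. CD4 and CD8 cells were isolated from digested tumours with magnetic beads and held in culture medium with serum before loading, and each group was 1 library. There is therefore no replicate check and no test, and the 95% intervals hold counting error alone. How many mice went into a library is not known here.

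A CD8 T cell that meets its antigen with help from growth cytokines such as interleukin-2 divides several times and builds cytotoxic granules, whose granzymes and perforin kill target cells. Dividing cells copy their DNA in S phase, under E2F transcription factors, and then pass through G2 and mitosis, whose genes are switched on late in the cycle. In tumours the dividing CD8 cells are followed because they renew the effector pool, and because effector, memory and exhausted cells divide to different degrees.

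The cycling cells were the deeper ones, and in the vehicle library more of them carried transcripts of other cells. Median UMIs per cell were 11123 in cycling and 5746 in non-cycling cells with mSTAR1302, and 15535 and 9081 with vehicle. Cells over 20000 UMIs made up 13.9% of the cycling cells with mSTAR1302 and 35.8% with vehicle, against 0.911% and 2.22% of the non-cycling cells. At least 5 UMIs over marker lists of macrophages, dendritic cells, B cells, neutrophils and stroma were found in 18 of 746 cycling cells with mSTAR1302 (2.41%) and in 44 of 260 with vehicle (16.9%), and in 0.759% and 7.50% of non-cycling cells. No doublet caller was run. Counts and list medians are given with and without such droplets where they differ, as are named genes whose call they change, an alternative added with the data in view that leaves 728 and 216 cycling cells, called below the cleaned cells. The gate fixed sums of T cell markers, so a cell could lack a single one of them, and 17 kept barcodes occurred in both libraries.

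The summed level of the 9 tumour and stromal markers was 68.0 CPM (UMIs of a gene per 1e6 UMIs of the class) in mSTAR1302 cycling cells, 46.5 CPM in the non-cycling ones, 492 CPM in vehicle cycling cells and 47.1 CPM in the non-cycling ones. Macrophage markers, 8 genes, summed to 101, 60.9, 97.5 and 719 CPM in the same order. Dendritic cell markers, 7 genes, summed to 17.8, 58.3, 384 and 283 CPM, with Flt3 and Clec9a at 0 in cycling cells of both libraries. The 4 neutrophil markers stayed between 1.24 and 1.88 CPM, and the 5 B cell markers between 7.52 and 15.6 CPM. The 5 NK cell markers summed to 25.5, 26.6, 127 and 122 CPM in the order given for stroma, with Fcer1g the highest in each class. Ncr1, Klrb1c and Klra8 were at 0 in mSTAR1302 cycling cells, but of the 5 only Klra8 in vehicle ones. At least 5 NK marker UMIs were found in 13 of 746 and 17 of 260 cycling cells. NK markers did not set the cleaned cells. The part of other cell types in the results was not tested beyond the values in the cleaned cells.

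The 2 genes of the marker set that the rule did not use were both higher in the cycling cells. Stmn1, which encodes a protein that takes microtubules apart before mitosis, stood at 805 CPM in cycling and 28.8 CPM in non-cycling cells with mSTAR1302, and at 570.3 and 20.7 CPM with vehicle. Pclaf, a partner of the DNA replication clamp, stood at 588 against 10.8 CPM and at 363 against 10.08 CPM. A Stmn1 UMI was found in 83.9% of the mSTAR1302 and 63.8% of the vehicle cycling cells. After every cell was thinned to 3000 UMIs the Stmn1 shares were 69.6% and 48.2%, against 6.91% and 5.52% of non-cycling cells and 13.6% and 11.5% of 22 and 61 myeloid cells. Near-empty droplets of 100 to 500 UMIs met the cycling sum in 0.0426% and 0.140% of cases, so free RNA alone gave a sum of 3 only in rare droplets of that size.

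The cycling sum itself, which chose the cells and is given as a description only, had a median of 13 UMIs with mSTAR1302 and 6 with vehicle. Its 95th percentile had the other order, with 55 and 87.1 UMIs. All 3 genes were seen in 62.1% of the mSTAR1302 cycling cells and in 37.7% of the vehicle ones. The threshold lay inside a continuous range: 129 and 81 cells had a sum of exactly 3, and 326 and 178 gated cells just outside it had a sum of 2. Along the steps of the sum, Stmn1 in the mSTAR1302 library went from 28.8 CPM at 0 to 51.5 at 1, 135 at 2, 170.1 at 3, 432 at 4 to 9 and 1048 at 10 or more. In the vehicle library the same steps held 20.7, 39.7, 48.8, 86.6, 219.6 and 986 CPM. Vehicle cells at 3 to 9 thus held less Stmn1 than mSTAR1302 cells at the same step, and at 10 or more the 2 libraries were close.

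**Figure D1:**
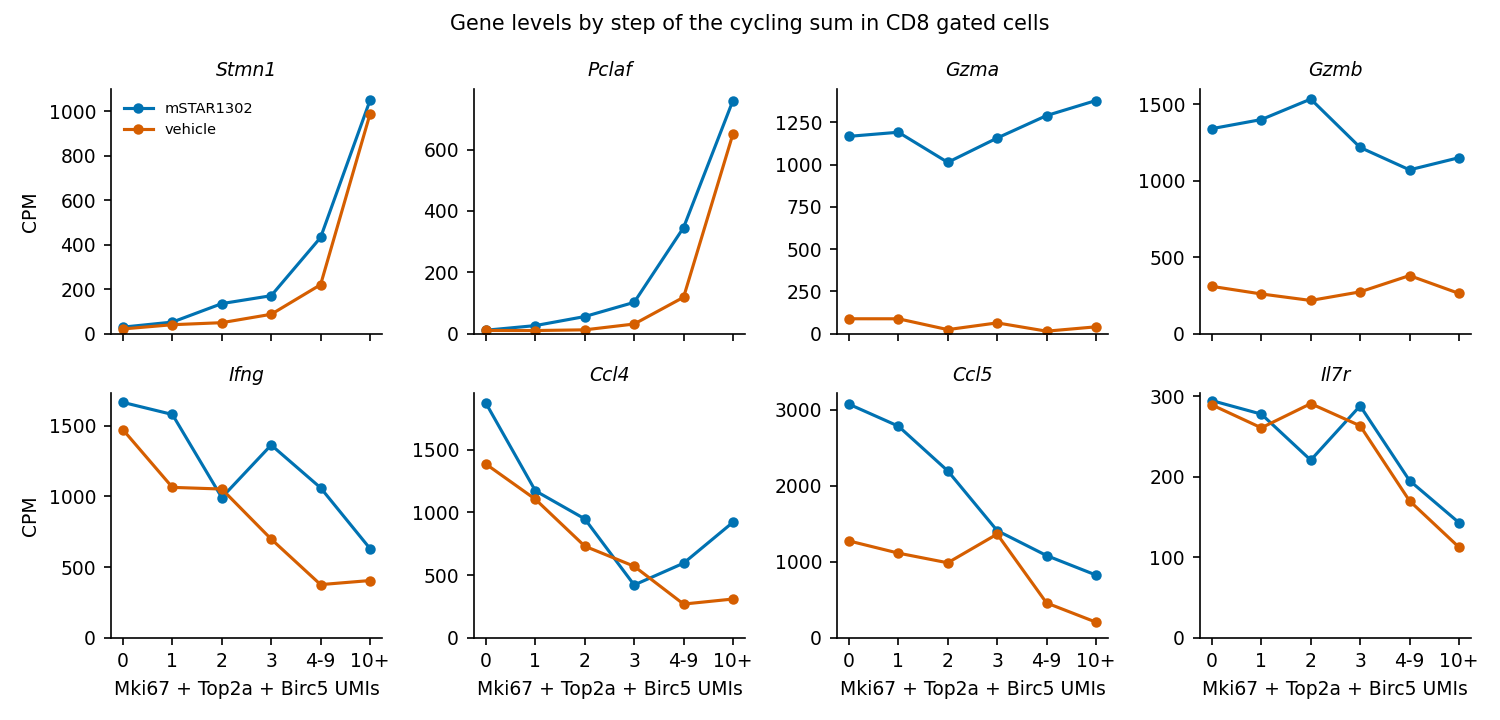
Levels (CPM, linear axes from 0) of 8 genes by step of the cycling sum in CD8 gated cells of the mSTAR1302 (blue) and vehicle (orange) libraries. Stmn1 and Pclaf climb to 1048 and 760.1 CPM with mSTAR1302 at a sum of 10 or more, while Ccl5 goes from 3073 to 826 CPM; cells at 1 and 2 are in neither class.

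Genes were compared between cycling and non-cycling cells of each library. A gene was read when it reached 20 CPM in either class and was called when its CPM differed at least 2-fold, on the scale of log2 of CPM plus 1. With mSTAR1302 358 of 5271 genes were higher in cycling cells (6.79%; cleaned cells 6.8%) and 19 lower (0.36%; cleaned cells 0.305%). With vehicle 425 of 5758 genes were higher (7.38%) and 33 lower (0.573%), and in the cleaned cells 250 of 5540 were higher (4.51%) and 14 lower (0.253%). The lists below share the cells of the rule, so their counts describe the cycling cells and support nothing about them.

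Summed over all listed genes, G2 and mitosis transcripts took 7321 CPM in cycling and 1479 CPM in non-cycling cells with mSTAR1302, and 5948 and 1554 CPM with vehicle. With mSTAR1302 38 of the 42 genes of that list that were read passed 2-fold, none of them downward, and with vehicle 39 of 43 (33 of 38 in the cleaned cells, where Ccnb1 was under 20 CPM). S phase transcripts took 3615 against 1010.1 CPM and 2886 against 1012 CPM, with 34 of 38 and 28 of 37 genes read past 2-fold, all upward (28 of 36 in the cleaned vehicle cells). Replication-dependent and variant histones took 8978 against 840 CPM and 5321 against 1004 CPM. A gene that reaches 20 CPM only in cycling cells had to be higher there, so the shares of genes past 2-fold among those read are no measure of the lists.

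The single genes with the largest ratios were parts of the spindle, the histones and the enzymes of DNA synthesis. Cenpf, a kinetochore protein of late cycle, stood at 204 CPM in cycling and 1.90 in non-cycling cells with mSTAR1302, and at 158 and 1.96 CPM with vehicle, log2 ratios of 6.14 and 5.74. Ube2c, the ubiquitin conjugating enzyme of the anaphase complex, stood at 241 against 5.09 CPM and at 192 against 4.46 CPM. Hmmr, a spindle protein, stood at 88.8 against 0.699 CPM and at 68.4 against 1.43 CPM. Cyclin A2 (Ccna2) stood at 99.1 against 0.738 CPM and at 81.6 against 1.96 CPM. These genes were at 5.09 CPM or less in the non-cycling class of both libraries.

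Rrm2, a subunit of the ribonucleotide reductase that makes DNA precursors, stood at 196 against 4.39 CPM with mSTAR1302 and at 127 against 4.55 CPM with vehicle. The thymidylate synthase gene Tyms stood at 137 against 10.5 CPM and at 108 against 12.2 CPM. Mcm5, part of the helicase that opens replication origins, differed less, with 114 against 23.7 CPM and 91.9 against 15.8 CPM, and the clamp gene Pcna stood at 347 against 122 CPM and at 281 against 134 CPM. Among histones Hist1h2ap stood at 4140 against 90.8 CPM and at 1754 against 62.7 CPM, and Hist1h1b, a linker histone, at 631 against 10.8 CPM and at 391 against 9.99 CPM. Histone genes of the clusters are near-identical copies, and the sources used here do not say how shared reads were counted.

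The promoters of these genes show the letters by which late and early cycle genes are often described, and they are printed for the genes with the largest mSTAR1302 ratios that hold them. In RefSeq windows from 250 bases before to 50 after the start (GRCm38.p6), 3 motifs were searched on both strands. The first, the CHR element, has the letters TTTGAA and is common in promoters of mitosis genes, as is the CCAAT box. The E2F site, common in promoters of replication genes, was searched in 4 spellings. These were first TTGGCGC, then the spelling TTCCCGC, then the spelling TTCGCGC, and last the spelling TTGCCGC. Of the 51 listed G2 and mitosis genes 40 had a single window in the table. TTTGAA was in 30 of them (75%) and in 18.5% of all 22862 single windows. CCAAT was in 30 (75%) against 38.2% of all, and both were in 24 (60%) against 7.21% of all. Of the 42 S phase genes 27 had a single window. An E2F match was in 20 of these (74.1%), in 8 of the 40 G2 and mitosis windows (20%) and in 9.55% of all. TTTGAA was in 4 of the 27 (14.8%) and CCAAT in 20 (74.1%). Effector genes had 24 windows, with TTTGAA in 20.8%, CCAAT in 37.5% and an E2F match in 4.17%. A match is a description of letters and not of a bound factor. Capitals mark the CHR and CCAAT letters in Cenpf (chr1:189688037-189688336, minus strand), Hmmr (chr11:40733388-40733687, minus strand) and Ube2c (chr2:164769679-164769978, plus strand), and the E2F letters in Rrm2 (chr12:24708004-24708303, plus strand) and E2f8 (chr7:48881547-48881846, minus strand).
Cenpf: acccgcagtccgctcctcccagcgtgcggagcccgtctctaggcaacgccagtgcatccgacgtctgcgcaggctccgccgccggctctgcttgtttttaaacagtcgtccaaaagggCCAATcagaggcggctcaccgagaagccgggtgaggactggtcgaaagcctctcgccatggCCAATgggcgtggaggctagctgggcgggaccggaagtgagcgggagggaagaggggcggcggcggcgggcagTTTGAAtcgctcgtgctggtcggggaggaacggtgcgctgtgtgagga
Hmmr: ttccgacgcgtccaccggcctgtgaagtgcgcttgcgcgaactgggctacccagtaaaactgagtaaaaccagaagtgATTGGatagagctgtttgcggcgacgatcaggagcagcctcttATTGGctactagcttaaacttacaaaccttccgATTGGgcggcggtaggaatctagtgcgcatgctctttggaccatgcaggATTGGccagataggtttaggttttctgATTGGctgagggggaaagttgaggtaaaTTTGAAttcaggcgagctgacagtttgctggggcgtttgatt
Ube2c: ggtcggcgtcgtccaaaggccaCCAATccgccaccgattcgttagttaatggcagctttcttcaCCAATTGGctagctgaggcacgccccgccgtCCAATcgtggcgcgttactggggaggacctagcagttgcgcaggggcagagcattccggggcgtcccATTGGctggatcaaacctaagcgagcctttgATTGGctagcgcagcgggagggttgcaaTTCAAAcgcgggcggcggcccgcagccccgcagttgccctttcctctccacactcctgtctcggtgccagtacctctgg
Rrm2: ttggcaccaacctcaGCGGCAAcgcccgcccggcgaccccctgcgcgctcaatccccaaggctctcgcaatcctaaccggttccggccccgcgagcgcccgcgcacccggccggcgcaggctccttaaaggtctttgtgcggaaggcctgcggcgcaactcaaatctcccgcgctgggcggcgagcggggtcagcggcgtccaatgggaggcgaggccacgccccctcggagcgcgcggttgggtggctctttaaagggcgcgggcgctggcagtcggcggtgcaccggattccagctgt
E2f8: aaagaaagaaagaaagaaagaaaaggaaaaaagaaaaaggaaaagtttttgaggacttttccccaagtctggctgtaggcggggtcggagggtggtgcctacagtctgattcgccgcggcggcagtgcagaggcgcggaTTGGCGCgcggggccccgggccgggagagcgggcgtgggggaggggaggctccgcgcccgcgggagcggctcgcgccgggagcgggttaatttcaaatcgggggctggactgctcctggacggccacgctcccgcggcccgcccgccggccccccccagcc
In Cenpf TTTGAA begins at base 3 after the start and in Hmmr at base 9, while in Ube2c it lies on the other strand, 29 bases before the start. The E2F letters of Rrm2, on the other strand, begin 235 bases and those of E2f8 111 bases before the start. E2f8, a repressor of the E2F family that is itself induced in S phase, stood at 31.9 CPM in cycling and 0.777 in non-cycling cells with mSTAR1302, and at 23.5 and 0.357 CPM with vehicle.

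Of the cyclins, cyclin-dependent kinases and their inhibitors, 13 of 27 genes read passed 2-fold upward with mSTAR1302 and 13 of 28 with vehicle. None passed it downward, and in the cleaned cells 13 of 28 and 10 of 26 passed upward. Over all genes read 6.79% and 7.38% were higher and 0.36% and 0.573% lower. Ccne1, Cdk2 and E2f1 were among the higher ones in both libraries, and other members were lower but short of 2-fold. Cyclin B1 (Ccnb1) and Cdk1, which drive mitosis, stood at 27.4 against 0.932 CPM and 90.8 against 3.22 CPM with mSTAR1302, and at 30.3 against 2.14 CPM and 103 against 4.37 CPM with vehicle. Ccnd2, a D-type cyclin of the growth response, was the other way, with 165 CPM in cycling and 262 in non-cycling cells with mSTAR1302 and 288 against 498 CPM with vehicle, both short of 2-fold. Ccnd3 stood at 99.7 against 93.6 CPM and at 78.4 against 77.6 CPM. The inhibitor gene Cdkn1b, which holds resting cells out of the cycle, stood at 66.4 against 102 CPM and at 77.6 against 109 CPM. Btg1, an antiproliferative gene, stood at 1269 against 1900.4 CPM and at 1004 against 1681 CPM. Cdkn1a, which encodes the inhibitor p21 and is induced by p53, stood at 113 CPM in mSTAR1302 cycling cells, 62.7 in the non-cycling ones, 36.8 in vehicle cycling cells and 29.97 in the non-cycling ones.

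Granzyme genes encode the killing enzymes of the granules, and their CPM differed by gene and library. Gzma (chromosome 13, 113093825 to 113100981 on GRCm38) stood at 1331 CPM in cycling and 1167 CPM in non-cycling cells with mSTAR1302, a log2 ratio of 0.19. In the vehicle library it was low in both, with 36.5 CPM in cycling and 87.4 CPM in non-cycling cells, a log2 ratio of -1.24 that was -0.20 with cells thinned before the rule. Gzmb stood at 1144 against 1341 CPM with mSTAR1302 and at 301 against 309 CPM with vehicle. Gzmk, beside Gzma on chromosome 13, stood at 90.4 against 88.3 CPM and at 14.7 against 20.96 CPM, a vehicle log2 ratio of -0.49 that was 0.61 with cells thinned before the rule. Thus cycling cells of the mSTAR1302 library held Gzma, Gzmb and Gzmk at levels within 1.2-fold of those in its non-cycling cells. Near-empty droplets of that library held 916 CPM of Gzma, 1092 CPM of Gzmb and 61.0 CPM of Gzmk. With vehicle they held 616 CPM of Gzmb, above both CD8 classes. The part of free RNA in these levels was not tested. Perforin (Prf1), which opens the target membrane, stood at 138 against 155 CPM and at 203 against 231 CPM. Nkg7, a granule membrane protein, stood at 1386 against 1738 CPM and at 1238 against 1893 CPM.

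Gzmc and Gzmf, neighbours in the granzyme cluster on chromosome 14 (56231441 to 56234656 and 56205263 to 56211417), had higher sums in cycling cells, but few cells carried them. Gzmc stood at 68.3 against 33.6 CPM with mSTAR1302 and at 151 against 22.9 CPM with vehicle, log2 ratios of 1.00 and 2.67. Gzmf stood at 267 against 183 CPM and at 911 against 314 CPM, log2 ratios of 0.54 and 1.53. In near-empty droplets of the mSTAR1302 and vehicle libraries Gzmc stood at 64.5 and 62.8 CPM and Gzmf at 212 and 193 CPM. The part of free RNA in these ratios was not tested. The 10 cells with most UMIs held 94.8% of the Gzmc and 86.3% of the Gzmf UMIs of the 260 vehicle cycling cells, and 62.8% and 69.3% in the mSTAR1302 library. After thinning, a Gzmc UMI was found in 6.13% of cycling and 3.11% of non-cycling cells with mSTAR1302 and in 6.67% and 2.53% with vehicle, differences of 3.03 points (1.38 to 5.07) and 4.13 points (1.43 to 7.96). The share of myeloid cells with a Gzmc UMI was 0.0% of 22 and 1.64% of 61. For Gzmf the mSTAR1302 share of 6.54% lay under that of its 22 myeloid cells (9.09%, or 2 cells, 1.12 to 29.2), so no difference is read from it, while in the vehicle library it was 11.8% of cycling and 4.98% of non-cycling cells and 0.0% of myeloid cells. The 2 genes and their neighbours are close paralogs, so counts may be split among them. Without cells over 20000 UMIs the vehicle Gzmf log2 ratio was 0.19, and with cells thinned before the rule the mSTAR1302 Gzmc ratio was 0.44.

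Among the secreted signals of effector cells, Ifng, Ccl3, Ccl4 and Ccl5 went the other way and were lower in CPM in cycling cells of both libraries. Tnf, another effector cytokine gene, had log2 ratios of 0.28 with mSTAR1302 and -0.17 with vehicle, both short of 2-fold. With cells thinned before the rule these Tnf ratios were 0.57 and 0.34. Interferon gamma (Ifng, chromosome 10, 118441046 to 118445892), the cytokine that arms macrophages and raises antigen presentation, stood at 817 CPM in cycling and 1665 in non-cycling cells with mSTAR1302 and at 455 and 1471 CPM with vehicle, log2 ratios of -1.03 and -1.69. The chemokine genes Ccl3, Ccl4 and Ccl5 lie together on chromosome 11. Ccl5 stood at 956 against 3073 CPM and at 515 against 1274 CPM, log2 ratios of -1.68 and -1.30. Ccl4 stood at 788 against 1868 CPM and at 349 against 1384 CPM, log2 ratios of -1.24 and -1.98. Ccl3 stood at 536 against 1310.3 CPM and at 208 against 993 CPM, log2 ratios of -1.29 and -2.25. Near-empty droplets of the mSTAR1302 and vehicle libraries held 756 and 299 CPM of Ccl3 and 1199 and 701 CPM of Ccl4. Each of these levels was above that of the cycling and below that of the non-cycling cells, and the part of free RNA was not tested. Ccl3 and Ccl4 were lower by 2-fold or more under each of 13 other settings in both libraries, and so was Ccl5 with mSTAR1302, whereas Ccl5 with vehicle was at -0.38 without cells over 20000 UMIs. Ifng with mSTAR1302 was just past 2-fold and was at -0.93 in the cleaned cells and at -0.75 with each cell weighted equally. Few cells held most of these chemokine UMIs, since in cycling cells the 10 richest held 74.6% and 76.7% of those of Ccl3 and 60.6% and 51.3% of those of Ccl4 with mSTAR1302 and vehicle. At equal depth a Ccl3 UMI was found in 15.3% of cycling and 22.9% of non-cycling cells with mSTAR1302 and in 14.5% and 18.8% with vehicle, the latter differing by -4.31 points (-8.81 to 1.01). A Ccl4 UMI was found in 36.9% and 43.4% with mSTAR1302 and in 34.1% and 35.7% with vehicle, the latter differing by -1.63 points (-7.87 to 4.995). Myeloid cells held a Ccl3 UMI in 40.9% and 40.98% and a Ccl4 UMI in 50% and 52.5% of cases, above each CD8 class, so no order of Ccl3 or Ccl4 is read from the shares.

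**Figure D2:**
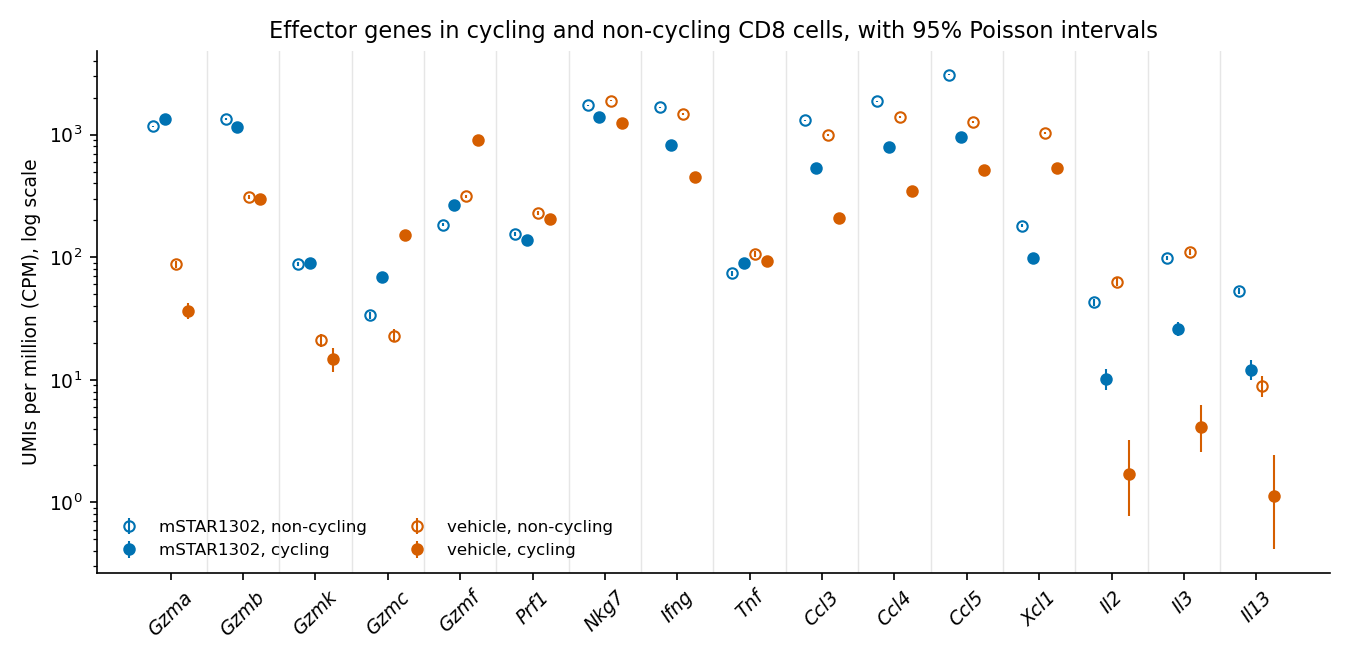
Levels (CPM, log axis) of 16 effector genes in non-cycling (open) and cycling (filled) CD8 cells of the mSTAR1302 (blue) and vehicle (orange) libraries, with exact Poisson intervals for counting error. Gzma stands above 1000 CPM in both mSTAR1302 classes and under 100 CPM in both vehicle classes, and Ccl3, Ccl4 and Ccl5 stand lower in cycling cells of each library.

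Because cycling cells held about 2 times the UMIs of non-cycling cells, levels per cell differ from levels in CPM. Ifng came to 10.6 UMIs per cycling cell and 10.8 per non-cycling cell with mSTAR1302, and to 9.31 and 14.1 with vehicle. Ccl5 came to 12.4 against 20.02 UMIs per cell with mSTAR1302 and 10.5 against 12.2 with vehicle. Gzma came to 17.3 against 7.60 UMIs per cell with mSTAR1302 and 0.746 against 0.835 with vehicle. Per cell, Ifng in the mSTAR1302 library was close in both classes, while Ccl5 was lower on both scales in both libraries.

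Shares of cells with a transcript, read at an equal 3000 UMIs per cell, showed smaller differences than the sums. With mSTAR1302 a Ccl5 UMI was found in 69.5% of cycling and 77.1% of non-cycling cells, a difference of -7.58 points (-11.3 to -4.05), and with vehicle in 29.4% and 36.2%, a difference of -6.79 points (-12.8 to -0.297). Ifng was found in 54.4% and 60.4% with mSTAR1302, a difference of -6.09 points (-10.05 to -2.15), and in 57.3% and 55.4% with vehicle, where the share goes against the CPM and no order is read. The 10 richest cells held 41.2% of the Ifng UMIs of mSTAR1302 cycling cells and 51.4% of the Ccl5 UMIs of vehicle cycling cells. Free RNA of these genes was abundant with mSTAR1302, where near-empty droplets held 1933 CPM of Ccl5 and 1145 CPM of Ifng, above the 956 and 817 CPM of the cycling cells. In the same order of libraries a Ccl5 UMI was found in 18.2% and 14.8% of myeloid cells, an Ifng UMI in 13.6% and 1.64%, and a Prf1 UMI in 0.0% and 3.28%. The part of free RNA in the differences was not tested. Prf1 was found in 18.4% and 24.4% with mSTAR1302, a difference of -5.99 points (-9.002 to -2.70), and in 32.5% and 32.8% with vehicle. Unthinned, the shares were higher in all classes, for Ccl5 86.7% and 84.7% with mSTAR1302.

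Gzma was found in more cycling than non-cycling cells with mSTAR1302. A Gzma UMI was found in 62.3% of its cycling cells (58.6 to 65.8, exact Clopper-Pearson interval) and 54.8% of its non-cycling cells, a difference of 7.44 points (3.51 to 11.3). With vehicle it was found in 5.88% and 5.97%, which differ by -0.09 points (-2.86 to 3.72). Free Gzma RNA was abundant in the mSTAR1302 library, with 916 CPM in near-empty droplets against 17.6 CPM in the vehicle library, and 2 of 22 myeloid cells there held a UMI (9.09%) against 0.0% of 61. Gzmb was found in 76.3% of cycling and 73.2% of non-cycling cells with mSTAR1302 and in 30.2% and 28.2% with vehicle, intervals of the differences that include 0.

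Growth factor cytokines were rare in cycling and non-cycling cells. Il2, the T cell growth factor gene, stood at 10.1 against 42.7 CPM with mSTAR1302 and at 1.69 against 62.7 CPM with vehicle, log2 ratios of -1.97 and -4.57. Il3, a growth factor gene for myeloid progenitors, stood at 25.9 against 98.4 CPM and at 4.13 against 111 CPM, log2 ratios of -1.88 and -4.45. Il13, a type 2 cytokine gene, stood at 11.99 against 53.2 CPM and at 1.13 against 8.83 CPM. Very few cells carried them: the 10 richest held 95.7% of the Il2 UMIs of 1173 vehicle non-cycling cells and 70.7% of those of 3951 mSTAR1302 ones, and at equal depth an Il2 UMI was found in 0.545% of mSTAR1302 cycling and 1.49% of non-cycling cells. These ratios therefore rest on a handful of cells. With vehicle an Il2 UMI was found in 1.18% and 1.81%, a difference of -0.633 points (-1.87 to 1.68). Near-empty droplets of the mSTAR1302 and vehicle libraries held 41.2 and 9.38 CPM of Il2 and 50.2 and 5.93 CPM of Il3. These levels were above those of the cycling cells, and the part of free RNA was not tested. The chemokine gene Xcl1, whose product attracts dendritic cells, stood at 99.4 against 180.3 CPM with mSTAR1302 and at 534 against 1039.9 CPM with vehicle.

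Over the effector list of 32 genes, 27 were read in each library. With mSTAR1302 1 passed 2-fold upward and 4 downward, or 3 in the cleaned cells without Ifng (over all genes read 6.79% and 0.36%), with a median log2 ratio of -0.20 against 0.06 over all genes read. With vehicle 2 passed upward and 5 downward (over all genes 7.38% and 0.573%), with a median of -0.47 against 0.02, and the median was -0.22 in the cleaned cells and -0.04 without cells over 20000 UMIs. The genes past 2-fold were Gzmc upward and Ifng, Ccl3, Ccl4 and Ccl5 downward in both libraries, with Gzmf upward and Gzma downward past 2-fold with vehicle.

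Genes of naive and memory cells, which circulate and persist without dividing, stood lower in cycling cells with few past 2-fold. With mSTAR1302 20 of 21 genes read were below 0, 1 of them past 2-fold, with a median log2 ratio of -0.47. Over all genes read the median was 0.06 and 0.36% were 2-fold lower. With vehicle 18 of 19 memory genes read were below 0, with a median of -0.65 and of -0.44 in the cleaned cells, against 0.02 and 0.01 over all genes read. Il7r, the receptor chain for the survival cytokine interleukin-7, stood at 173 against 295 CPM and at 160.5 against 289 CPM. An Il7r UMI was found at equal depth in 35.01% of cycling and 48.3% of non-cycling cells with mSTAR1302, a difference of -13.3 points (-17.03 to -9.37), and in 36.9% and 49.05% with vehicle, a difference of -12.2 points (-18.6 to -5.44). It was found in 40.9% of the 22 mSTAR1302 myeloid cells, above the share of the cycling cells, so no difference is read from the mSTAR1302 shares, and in 16.4% of the 61 vehicle ones. S1pr1, the receptor by which T cells leave tissues, stood at 14.4 against 30.1 CPM and at 10.3 against 20.6 CPM, and the vehicle log2 ratio of -0.93 was -1.04 in the cleaned cells. Tcf7, the transcription factor gene of stem-like T cells, stood at 37.2 against 51.8 CPM and at 36.1 against 56.02 CPM. Dapl1, a gene of naive and stem-like CD8 cells, was the exception of the vehicle library, with 162 CPM in cycling and 62.5 CPM in non-cycling cells, against 6.61 and 8.35 CPM with mSTAR1302. Its vehicle log2 ratio was 1.36, 1.14 in the cleaned cells and 0.52 without cells over 20000 UMIs, and 10 cells held 66.0% of its UMIs in the vehicle cycling class.

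Inhibitory receptors and exhaustion genes, which mark long stimulated cells, had no member past 2-fold in cycling cells of either library, where the low shares over all genes (6.79% and 0.36% with mSTAR1302, 7.38% and 0.573% with vehicle) leave few calls for a list of this size. Their median log2 ratios were -0.28 with mSTAR1302 (19 genes read) and -0.46 with vehicle (18 genes read), and -0.25 and -0.29 in the cleaned cells. Pdcd1, the gene of PD-1, stood at 99.4 against 107 CPM and at 186 against 251 CPM. Lag3 stood at 143 against 184 CPM and at 190 against 339 CPM, and Havcr2, the gene of TIM-3, at 76.1 against 97.2 CPM and at 37.2 against 62.0 CPM. Tox, a transcription factor gene of exhausted cells, stood at 13.4 against 21.6 CPM and at 69.9 against 84.03 CPM. At equal depth a Pdcd1 UMI was found in 16.8% and 18.5% with mSTAR1302 and in 40.8% and 41.8% with vehicle, differences of -1.76 points (-4.62 to 1.38) and -1.03 points (-7.57 to 5.74).

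Interleukin-2 receptor chains and genes that the receptor induces through STAT5 likewise had no member past 2-fold, with 22 and 21 genes read and the same shares over all genes. Il2ra, the high-affinity chain, stood at 225 against 239 CPM with mSTAR1302 and at 129 against 154 CPM with vehicle. Near-empty droplets held 199.8 CPM of Il2ra with mSTAR1302 and 401 CPM with vehicle, the latter above both CD8 classes. Il2rb, a signalling chain, stood at 249.8 against 277 CPM and at 290.2 against 348 CPM. Cish, a feedback inhibitor gene, stood at 231 against 223 CPM and at 144 against 216 CPM, and Bcl2, a survival gene, at 198 against 252 CPM and at 127 against 162 CPM. An Il2ra UMI was found at equal depth in 46.2% and 43.1% with mSTAR1302 and in 30.2% and 29.2% with vehicle. The list medians were -0.27 and -0.35, the latter -0.14 in the cleaned cells and 0.05 without cells over 20000 UMIs.

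Other programmes differed by small amounts. Beside them, the medians over all genes read were 0.06 with mSTAR1302 and 0.02 with vehicle, and 0.36% and 0.573% were 2-fold lower. The 36 nuclear genes of the respiratory chain had medians of 0.21 with mSTAR1302, with 30 above 0, and 0.28 with vehicle, with 31 above 0, and none past 2-fold. Glycolysis enzymes had medians of -0.01 and 0.23 (0.13 in the cleaned cells), and T cell receptor signalling genes -0.23 and -0.39 (-0.22 in the cleaned cells). Interferon-induced genes had medians of -0.23 and -0.11, and 1 member, Slfn5, a gene tied to T cell quiescence, was past 2-fold downward, with 8.37 against 27.7 CPM and 14.8 against 32.6 CPM. Its vehicle log2 ratio of -1.08 was -0.72 in the cleaned cells, and the list median of -0.11 was 0.33 without cells over 20000 UMIs. Nucleotide synthesis genes, which overlap the S phase list, took 1618 against 474 CPM and 1573 against 503 CPM. Homing genes had medians of -0.37 and -0.48, and apoptosis genes 0.12 and -0.27. The heat shock and dissociation list had a median of -0.08 with mSTAR1302 and 0.29 with vehicle, the latter -0.21 in the cleaned cells.

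**Figure D3:**
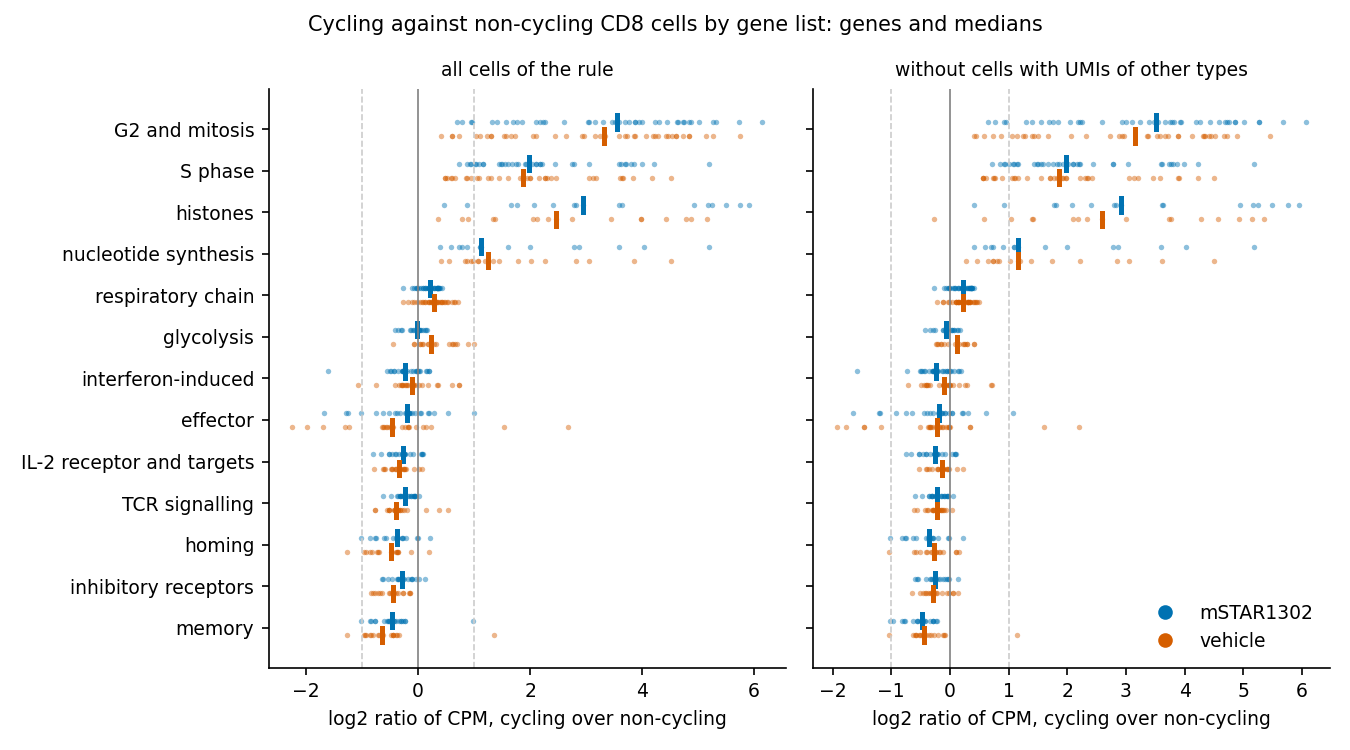
Log2 ratios of CPM, cycling over non-cycling, for the genes of 13 lists (dots) and their medians (bars) in the mSTAR1302 (blue) and vehicle (orange) libraries, for all cells of the rule and for the cleaned cells. Dashed lines mark 2-fold. Cell cycle lists lie to the right in both, and the vehicle medians of most other lists move toward 0 in the cleaned cells, that of the effector genes from -0.47 to -0.22.

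With vehicle the list of largest ratios also held genes of other cells. Cald1, a contractile protein gene of fibroblasts and tumour cells, stood at 232 CPM in cycling and 4.73 CPM in non-cycling cells, Col1a2, a collagen gene, at 151 and 3.30 CPM, and Krt8, a keratin gene of epithelial cells, at 86.8 and 1.43 CPM. In the cleaned cells they stood at 1.67 and 3.87, 3.34 and 2.88, and 1.11 and 1.49 CPM. On the lower side Lyz2, the lysozyme gene of macrophages, stood at 46.04 against 472 CPM and Apoe at 10.9 against 113 CPM, and in the cleaned cells at 21.7 against 33.4 CPM and 6.68 against 14.98 CPM. In the cleaned vehicle cells the 12 largest ratios were all of cycle genes, among them Cenpf, Hist1h1b, Esco2, Hist1h3c, Cenpe and Nusap1. The 12 lowest were led by Il2, Il3 and Penk, followed by Ccl3, Ccl4, Tcp11l2 and Ifng, and Gzma and Ccl5 were also among them. Tcp11l2, whose role in T cells is little described, was low in both libraries, with 8.06 against 30.6 CPM and 8.27 against 34.0 CPM.

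The share of CD8 gated cells that were cycling depended on depth. At full depth it was 12.2% of 6097 cells with mSTAR1302 and 12.6% of 2058 with vehicle, a difference of -0.398 points (-2.10 to 1.21). With every cell thinned to 3000 UMIs before the gate and the rule, it was 8.10% of 5516 cells (7.40 to 8.86) and 5.79% of 2247 (4.86 to 6.83), a difference of 2.32 points (1.07 to 3.48, Newcombe interval). Thinning left out 658 and 99 shallower cells. The gate was read on the thinned counts, so its cells are not the same as at full depth. Thinned to 5000 UMIs the difference was 5.06 points (3.50 to 6.54). With the gate read at full depth and the sum after thinning, an alternative added after the data were seen, it was 3.58 points.

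In the vehicle library cycling was more common among regulatory T cells than among CD8 cells. At 3000 UMIs the sum was reached by 13.1% of 647 vehicle CD4 gated cells with a Foxp3 UMI (10.6 to 15.99) and by 9.09% of 605 without one (6.92 to 11.7), against the 5.79% of the CD8 gate. In the mSTAR1302 library the corresponding shares were 5.97% of 67 cells (1.65 to 14.6) and 5.16% of 601 (3.53 to 7.24), against 8.10%. The order of CD8 and CD4 cells was thus opposite in the 2 libraries, with the interval of the 67 cells spanning the CD8 value. Among myeloid cells 1 of 22 and 4 of 61 reached the sum (4.55% and 6.56%), at full-depth medians of 10888.5 and 25377 UMIs, so shares of this size also occurred in cells outside the T gates.

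Within the mSTAR1302 CD8 gate, cells with a Gzma UMI at 3000 UMIs reached the sum more often than those without, 9.34% of 3050 against 6.57% of 2466, a difference of 2.77 points (1.34 to 4.19). In the vehicle gate 5.60% of 125 and 5.80% of 2122 reached it, differing by -0.196 points (-3.25 to 5.39). Trbv UMIs were read at full depth. Cells with a UMI of Trbv13-2 or Trbv13-3, with or without other Trbv UMIs, reached the sum in 11.7% of 779 cases with mSTAR1302. Cells with another Trbv UMI and none of these 2 reached it in 8.65% of 775, a difference of 3.04 points (0.0245 to 6.06). With vehicle 9.68% of 93 and 7.43% of 525 reached it, differing by 2.25 points (-2.93 to 10.2).

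**Figure D4:**
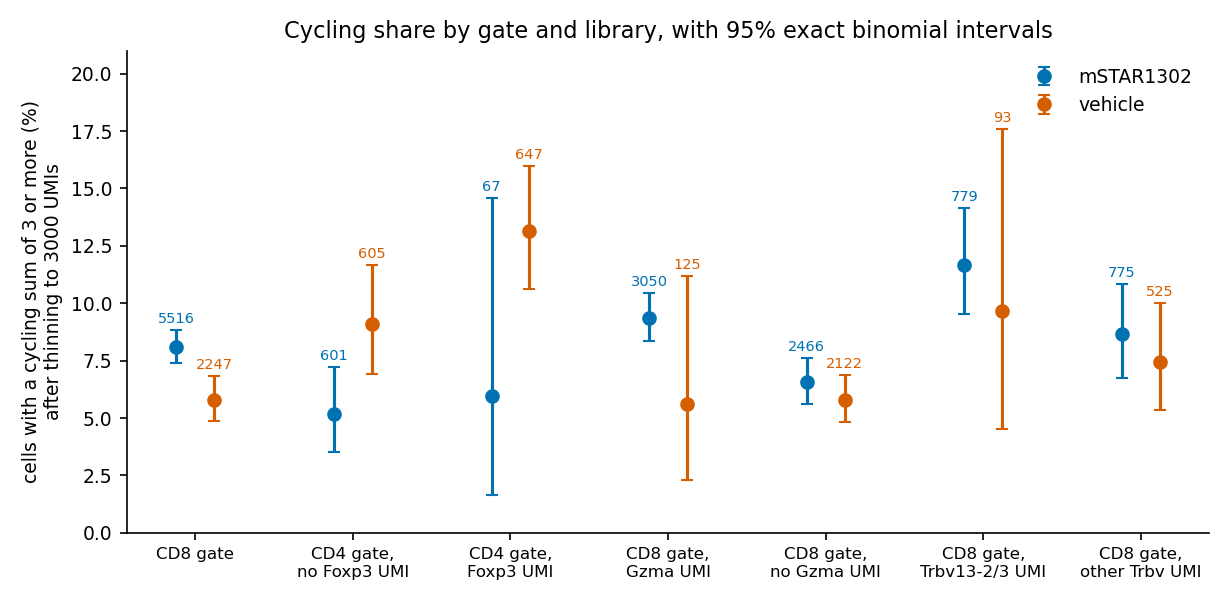
Share of cells (percent) with a cycling sum of 3 or more after thinning to 3000 UMIs, by gate and library, with exact binomial intervals and the number of cells above each. The CD8 gate stands at 8.10% with mSTAR1302 and 5.79% with vehicle, and vehicle CD4 cells with Foxp3 at 13.1%.

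The share of Trbv13-2 and Trbv13-3 differed more between libraries than between cycling and non-cycling cells of one library. Trbv13-2 and Trbv13-3 gave 170 of 401 Trbv UMIs in mSTAR1302 cycling cells (42.4%, 37.5 to 47.4) and 43.9% in non-cycling cells, a difference of -1.50 points (-7.02 to 4.13). With vehicle they gave 22 of 122 (18.0%, 11.7 to 26.02) and 16.4%, a difference of 1.66 points (-5.37 to 10.1). Between the libraries the cycling cells differed by 24.4 points (15.3 to 32.0) and the non-cycling cells by 27.5 points (22.7 to 31.9). With mSTAR1302 the -1.50 points in UMIs have the opposite sign to the 3.04 points in cells given above.

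Cell cycle position was read from 42 S phase and 51 G2 and mitosis genes in cycling cells thinned to 3000 UMIs. More UMIs of the G2 and mitosis list than of the S list were found in 70.8% of 734 mSTAR1302 cells (67.4 to 74.1) and 64.3% of 255 vehicle cells (58.1 to 70.2), a difference of 6.53 points (-0.0387 to 13.4). The reverse held in 24.4% and 28.2%, and the rest were tied. A raw excess depends on how long and how abundant each list is, so these are shares of a score and no measured phases. Free RNA enters them too. So does the rule, since Mki67, Top2a and Birc5 stood higher in the cells with more G2 and mitosis UMIs in both libraries. The share with more G2 and mitosis UMIs was 66.7% and 63.1% at a cycling sum of 2 or more, with mSTAR1302 and vehicle. At 5 or more it was 78.2% and 69.1%. No excess of late-cycle cells among dividing CD8 cells is therefore read from these shares. Gzma stood at 1423 CPM in the cells with more S UMIs and 1314 in those with more G2 and mitosis UMIs with mSTAR1302, and Ifng at 740 and 821 CPM. Ccl4 stood at 488 and 899 CPM and Gzmf at 5.71 and 358 CPM in the same order. With vehicle Gzmf stood at 1494 and 547 CPM, the other way round, and a few cells held most of its UMIs.

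Comparing the 2 libraries within cycling cells, 90 of 5685 genes were at least 2-fold higher with mSTAR1302 (1.58%) and 281 lower (4.94%). In the cleaned cells 74 of 5540 were higher (1.34%) and 172 lower (3.1%). The median over all genes was -0.09 on the log2 scale (-0.06 in the cleaned cells), and scaling to the median gene moved the counts to 117 and 252. The 2 groups of cells come from single libraries, so these counts compare libraries and not treatments.

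Genes higher in mSTAR1302 cycling cells were led by Gzma, with 1331 against 36.5 CPM, 36.5-fold (31.7 to 42.3). With cells thinned before the rule its log2 ratio of 5.15 was 3.97, outside that interval, which covers counting error only. In non-cycling cells the corresponding values were 1167 and 87.4 CPM. Esm1, an endothelial-associated proteoglycan gene, stood at 40.2 against 3.95 CPM, Gzmk at 90.4 against 14.7 CPM and Gzmb at 1144 against 301 CPM. Near-empty droplets held 1092 CPM of Gzmb with mSTAR1302 and 616 CPM with vehicle, and the part of free RNA was not tested. Plac8, Ly6c1 and Ly6c2, genes of recently activated and migratory T cells, stood at 812 against 181, 408 against 91.7 and 476 against 133 CPM. Lef1, a transcription factor gene of memory cells, stood at 50.2 against 10.7 CPM, the chemokine receptor gene Cxcr3 at 43.4 against 12.8 CPM and Klf3 at 41.7 against 15.4 CPM. These genes differed in the same direction between the non-cycling cells, where Gzmb stood at 1341 against 309 CPM, Plac8 at 903 against 179 CPM and Lef1 at 68.4 against 18.6 CPM.

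Genes lower in mSTAR1302 cycling cells included Dapl1, with 6.61 against 162 CPM, Igfbp7, a secreted growth factor binding protein gene, with 15.5 against 161 CPM, and Areg, an epidermal growth factor family gene, with 26.7 against 172 CPM. Xcl1 stood at 99.4 against 534 CPM, Ccr7, the lymph node homing receptor gene, at 64.9 against 298 CPM and Tox at 13.4 against 69.9 CPM. Spry1, an inhibitor of receptor signalling, stood at 8.99 against 51.3 CPM, and Serpina3g and Tnfsf11, the gene of RANKL, at 19.7 against 101 and 18.2 against 95.5 CPM. Pdcd1 stood at 99.4 against 186 CPM, short of 2-fold in all cells and past it in the cleaned cells. Between the non-cycling cells Dapl1, Xcl1, Ccr7, Tox and Pdcd1 were past 2-fold in the same direction. Xcl1 stood there at 180.3 against 1039.9 CPM and Pdcd1 at 107 against 251 CPM. Gzmc stood at 68.3 against 151 CPM and Gzmf at 267 against 911 CPM. Without cells over 20000 UMIs the Gzmf log2 ratio of -1.77 was -0.14 and the Gzmc ratio of -1.14 was 0.60.

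By list, the memory genes had a median log2 ratio of 0.56 between the cycling cells of the 2 libraries (0.35 in the cleaned cells) and 0.38 between non-cycling cells. Of 20 genes read 6 were past 2-fold upward and 4 downward (5 and 4 of 19 in the cleaned cells). Over all genes read the shares were 1.58% and 4.94% (1.34% and 3.1% in the cleaned cells), with medians of -0.09 and -0.06. In all cells the memory genes upward were Lef1, Klf3, Ly6c1, Ly6c2, Cxcr3 and Myb, and those downward Ccr7, Bach2, Xcl1 and Dapl1. Exhaustion genes had a median of -0.41 (-0.67 in the cleaned cells), with Havcr2 upward and Tox, Nr4a2, Cd200 and Rgs16 downward, joined in the cleaned cells by Pdcd1, Cd160 and Ikzf2. Their median between all non-cycling cells was -0.64, with Entpd1 upward and Pdcd1, Tox, Nr4a2, Cd200, Rgs16 and Ikzf2 downward. Interferon-induced genes had a median of 0.51 against -0.09 over all genes read, with 25 of 28 above 0. In non-cycling cells their median was 0.66 against -0.14 over all genes read. Effector genes had a median of -0.02 (-0.09), with Gzma, Gzmb, Gzmk, Ccl3 and Ccl4 upward and Gzmc, Gzmf, Cx3cr1 and Zeb2 downward. In the cleaned cells Ccl4 (0.95) and Gzmc (-0.62) were short of 2-fold, and Gzme and Cst7 were past it downward. The S phase and G2 and mitosis lists had medians of 0.30 and 0.24, and Cdkn1a, at 113 against 36.8 CPM, was the gene of the apoptosis and DNA damage list past 2-fold, as it was in non-cycling cells.

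The cycling ratios of the 2 libraries were set against each other in the cleaned cells, and the 8 largest differences in each direction are named. Upward with mSTAR1302 relative to vehicle were Il2, Il3, Kif15, Penk, Gzma, Hist1h2ai, Hist1h3b and Plk2. Kif15, a mitotic motor, stood at 94.7 against 13.8 CPM with mSTAR1302 and at 97.4 against 63.2 CPM with vehicle. Downward were Dapl1, Spata7, Ifit1, Gzmc, Tnfsf8, Ifi211, Cd7 and Gzmf. Ifit1, an interferon-induced gene, stood at 25.8 against 37.1 CPM with mSTAR1302 and at 32.3 against 19.3 CPM with vehicle. These differences were not tested.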

How the data were processed

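Tumour T cells of 1 mSTAR1302 and 1 vehicle library were profiled by 10x 3′ sequencing. The authors deposited unfiltered UMI counts per gene and barcode, whole numbers made with Cell Ranger, whose version is 4 per the file headers and 6.0.1 per the submitters' processing notes; the notes also name mm10. The libraries held 96486469 and 110026997 UMIs. The UMIs of each gene were added up per class and library and scaled to CPM, ratios used a pseudocount of 1 CPM, genes needed 20 CPM in either class, and 2-fold was a call. Ratios carry exact conditional binomial, levels exact Poisson, shares Clopper-Pearson and their differences Newcombe intervals at 95%. Thinning drew UMIs without replacement with seed 1. Where cells were thinned before the rule, the gate was also read on the thinned counts, so its cells differ from those at full depth. Myeloid cells had no Cd3d, Cd3e or Cd3g UMI and at least 5 UMIs over C1qa, C1qb, C1qc, Lyz2 and Csf1r. The ratio step was tested on simulated data. Members and gene lists were chosen with earlier results of these data known. Named genes are the 12 largest ratios in each direction, without gate, receptor segment, mitochondrial and ribosomal genes, the 8 largest ratios of ratios, list members past 2-fold or of highest CPM, and effector, exhaustion, memory and interleukin-2 genes. Only a part of them is described, and 1 gene is not reported here. Alternatives were other thresholds, depths, filters, pseudocounts and scalings, a 5% mitochondrial limit, equal weights, and leaving out cells over 20000 UMIs or with other types' UMIs. Scripts ran in Python 3.11.15 with pandas 2.3.3, SciPy 1.17.1, NumPy 2.4.6 and figures from matplotlib 3.10.9.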

Additional observations from a re-analysis of the deposited data

Results flagged for a closer look

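Gzma, the granzyme A gene, stood apart because its log2 ratio of cycling over non-cycling cells was above 0 in the mSTAR1302 library (0.19) and below 0 in the vehicle library (-1.24). The difference between these ratios was 1.452 on the log2 scale, and 1.69 in the cleaned cells. It was not tested, since each group is 1 library. With cells thinned before the rule the ratios were 0.23 and -0.20, but the gate was then read on the thinned counts too. Its vehicle classes were 130 cycling and 1758 non-cycling cells in place of 260 and 1173. These are not the same cells at lower depth, so the effect of depth on the Gzma difference is not read from them. At equal depth the vehicle shares of cells with a Gzma UMI differed by -0.09 points (-2.86 to 3.72). In vehicle cycling cells the 10 richest cells held 87.6% of the 194 Gzma UMIs.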

How the results depend on the processing

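No paired analysis was possible because each group is 1 library. The causes of the changes listed were not tested. The difference in cycling share (2.32 points) was -0.398 without thinning, 5.06 at 5000 UMIs, 4.19 without cells over 20000 UMIs and 3.58 with the gate at full depth. Genes 2-fold higher in mSTAR1302 cycling cells over non-cycling ones numbered 196 at 50 CPM and 583 at 5 CPM, and genes lower 7 and 35, 11 and 30 at a cycling sum of 2 or 5, and 58 after thinning before the rule. With vehicle the higher genes numbered 202 at 50 CPM, 910 at 5 CPM, 222 with equal weights, 185 without cells over 20000 UMIs and 250 in the cleaned cells. The lower ones numbered 15, 94, 13, 18 and 14 in that order, 18 and 108 at a sum of 2 or 5, and 208 after thinning. Between the libraries 205 cycling genes were higher after thinning, 43 at 50 CPM and 149 at 5 CPM, and 108 and 808 were lower at those filters and 172 in the cleaned cells. The phase difference was -3.18 points after thinning before the rule. The Trbv share difference within vehicle was -6.23 points without cells over 20000 UMIs, and that between cycling cells 36.7 points, or 38.9 after thinning. The effector list median with mSTAR1302 was -0.30 after thinning and -0.26 with median-ratio scaling. With vehicle it was -0.28 and -0.67 at a sum of 2 or 5, -0.16 with equal weights, -0.038 without cells over 20000 UMIs and -0.22 in the cleaned cells. Between libraries it was -0.13 at a sum of 2, -0.27 with equal weights and -0.34 without cells over 20000 UMIs.

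Some directions turned. After thinning before the rule, the vehicle log2 ratios were -1.10 for Cald1, -1.33 for Krt8 and 1.20 for Penk, and the heat shock list median was -0.034. In the cleaned cells Cald1 was at -0.87, Krt8 at -0.24 and the heat shock list at -0.21, and that list was at -0.020 with equal weights. Without cells over 20000 UMIs it was at -0.016, the vehicle interleukin-2 list at 0.050 and Gzmc between libraries at 0.60. The vehicle cyclin list was at -0.18 at 50 CPM. Between libraries the list medians after thinning were -0.12 for G2 and mitosis, -0.012 for histones and -0.0068 for homing, and glycolysis was at 0.0097 in the cleaned cells. Beside these 16 turns, 1948 other values stayed within their counting interval and 775 moved beyond it. Of these 23 and 34 crossed 0 from gene values short of 2-fold or list medians whose interval included 0. Among them the interferon median with vehicle was 0.33 and the nucleotide median between libraries 0.45, both without cells over 20000 UMIs, and vehicle Gzmk was at 0.61 after thinning. Depth limits genes carried by few cells, such as Il2, Il3, Gzmc and Gzmf.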
